A study of Homo sapiens with 6 samples.

Results

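The genes described here make cholesterol and fatty acids or control that synthesis: a list of 34 symbols, of which 33 matched a row among the 57209 gene rows of each count table. ACACA, the acetyl-CoA carboxylase gene, matched no identifier, so its counts were not analysed and it enters only the promoter search. The data were RNA-seq counts from MB157 cells, a human line of triple-negative breast cancer (without hormone receptors or HER2 amplification) that the titles label with Cas9 and that was kept in puromycin. Of the 6 libraries, 3 came from cells given a control sgRNA and 3 from the same line given an sgRNA against the transcription factor SOX9, all taken 4 days after transfection and sorted for the top 50% of sgRNA-expressing cells. The series text describes the cells as stably expressing SOX9, and the labels call the 3 replicates of each group technical, so p-values measure the spread between these libraries only. The promoter driving the Cas9 or SOX9 construct is not given.

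Cholesterol is built from acetyl-CoA in a chain of enzymes. The mevalonate pathway yields farnesyl pyrophosphate, squalene synthase and its successors yield lanosterol, and a last series of enzymes removes methyl groups and moves double bonds until cholesterol is reached. Fatty acid synthesis starts from the same acetyl-CoA, and both chains are switched on by the SREBP transcription factors, which the chaperone SCAP carries out of the endoplasmic reticulum when sterol is low and INSIG proteins hold back when sterol is high.

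Each library held between 776125 and 1018854 counts. Values are given as CPM, counts scaled to library size, and a gene was called when its edgeR p-value, adjusted by Benjamini-Hochberg over all 7959 genes tested, was under 0.05. The row of the targeted gene SOX9 had 38, 52 and 44 counts in control and 37, 39 and 60 in SOX9 sgRNA libraries. Its log2 fold change was -0.22 (adjusted p = 0.70 by edgeR, SE 0.26). Pairs of libraries within a group differed by a chi-square per degree of freedom of 1.97 to 2.44, against 4.41 to 5.57 between groups. Breast epithelial markers were all tested (7 of 7, 723 to 887 summed counts in control and 709 to 971 in SOX9 sgRNA libraries, with KRT19 and KRT7 lower), while no leukocyte, endothelial, fibroblast or adipocyte marker reached more than 2 counts in a library. Of the epithelial counts, 1237 over the control and 1560 over the SOX9 sgRNA libraries were in the KRT8 row, which lies opposite KRT18. The ERBB2 row, opposite MIEN1 and PGAP3, had 141 to 213 counts per library. The rows of the hormone receptor genes ESR1 and PGR had 0 to 7 and 3 to 7 counts per library and were not tested.

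The strand of a count matters here. The tables were counted with strand setting 1, which assigns a fragment to genes on a single strand only, and some abundant genes had few counts. GAPDH had 66 to 126 counts per library against 7249 to 11002 in the row across from it, ENSG00000269968. FTH1 had 216 to 344 against 8823 to 13164 in BEST1 opposite it. RPS23 had 5 to 22 against 7005 to 9802 in ATG10 opposite it. Between 80.9% and 81.5% of the counts in a library lay in rows with an exon on the other strand. Were this setting opposite to the orientation of the kit's reads, a row would hold fragments from the strand opposite its gene. This would hold whether or not a gene is annotated there. It bears on the meaning of every value given here, including those of SOX9 and the cell type markers above. Whether a row reflects the mRNA of the gene it is named for was not tested. Which of the overlapping genes gave rise to the fragments in a row was not tested. Each synthesis gene is therefore given by its own row and, as a separate value, by every row whose exons overlap its exons on the other strand, called its opposite row below. There were 17 such rows, opposite 15 of the genes.

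By their own rows, 18 of the 33 genes had enough counts to be tested. With the SOX9 sgRNA 4 of these rows fell while 0 rose: those of MVK, SQLE, DHCR7 and SCD. These 4 of 18 are 22.2%. Of all tested genes 9.01% were called, 6.02% lower and 2.99% higher. Of the opposite rows 14 were tested, and 6 fell while 0 rose, or 42.9%, beside 7.86% called lower among all tested rows with an exon on the other strand. The 6 lie opposite ACAT2, where 2 rows fell, and HMGCS1, IDI1, FDPS and MMAB. MVK, FADS1 and FADS2 count among both the own and the opposite rows, since MVK lies opposite MMAB and FADS1 and FADS2 lie opposite each other. The median log2 fold change was -0.22 over the 18 own rows and -0.44 over the 14 opposite rows, against 0.01 over all tested genes. Over the 11 tested opposite rows that are not themselves listed genes the median was -0.31, and 5 of these rows fell. With library totals in place of the scaling factors the median of all genes moved to 0.19, those of the 18 own and 14 opposite rows to -0.04 and -0.25, and 3 own and 5 opposite rows were lower. Falls were also found across from abundant genes outside this synthesis. ENSG00000269968, opposite GAPDH, fell by 0.59 (adjusted p = 7.79e-16 by edgeR) and ATG10, opposite RPS23, by 0.30 (adjusted p = 7.26e-06 by edgeR). BEST1, opposite FTH1, was not called (0.04, adjusted p = 0.67 by edgeR). The 7.86% was taken over tested rows of every abundance.

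**Figure D1:**
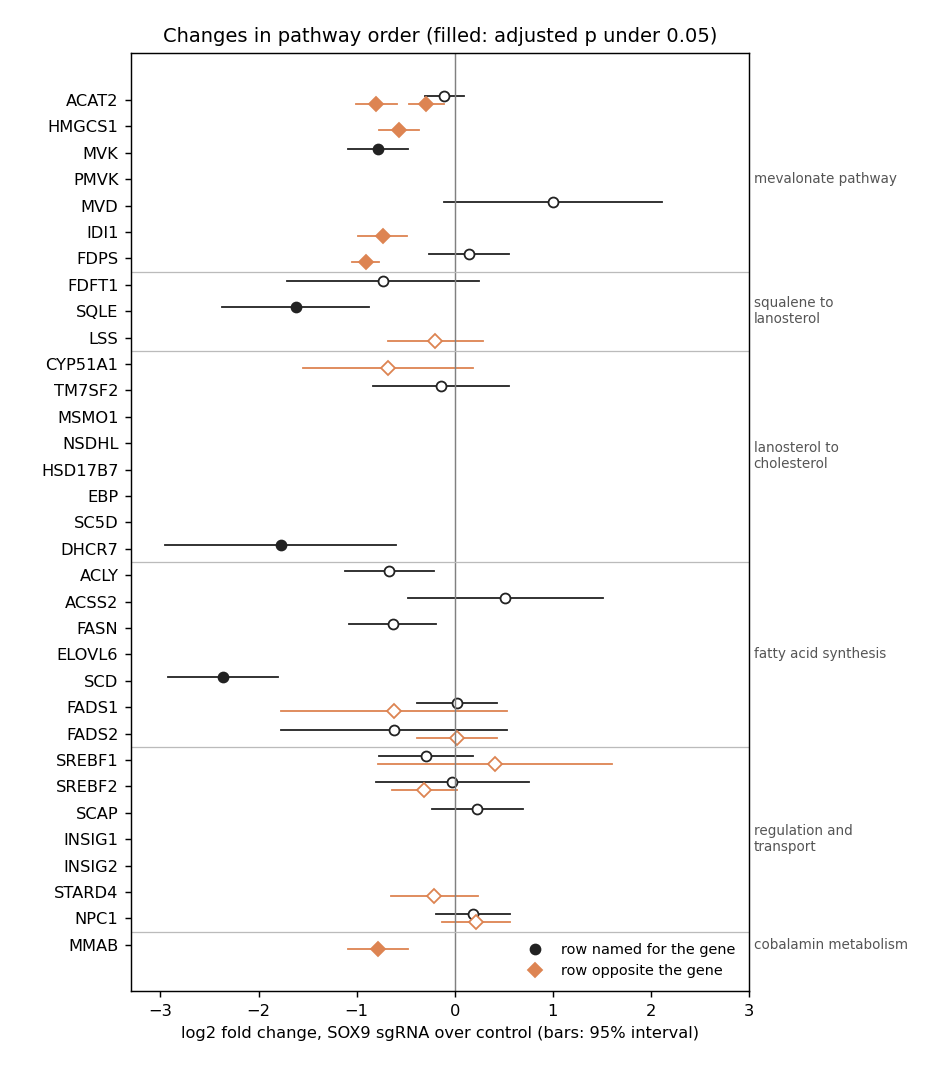
Log2 fold change of SOX9 sgRNA over control (x axis) for each gene in pathway order (y axis), circles for the row named for the gene and diamonds for rows opposite it, filled where the adjusted p was under 0.05, with 95% intervals as bars. Filled symbols all lie left of 0, and genes with no symbol had too few counts to be tested.

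Of the mevalonate pathway's own rows 4 were tested and 1, MVK, fell, with a median log2 fold change of 0.02. Rows opposite ACAT2, HMGCS1, IDI1 and FDPS also fell, and these carry the names of other genes. ACAT2, the cytosolic thiolase that joins acetyl-CoA units (ENSG00000120437, chromosome 6, 160181360 to 160200144, plus strand, GRCh37), had 506, 475 and 470 CPM in its own row in control libraries and 417, 425 and 503 in SOX9 sgRNA libraries. The groups overlapped, and the log2 fold change of -0.11 (adjusted p = 0.62 by edgeR, SE 0.10) was not called. The row opposite its 3′ end is that of TCP1, a chaperonin subunit gene, which shares 454 bp of exon with ACAT2 and with no other gene. TCP1 had 589, 645 and 508 CPM in control and 296, 317 and 385.5 in SOX9 sgRNA libraries. Every SOX9 sgRNA library was below every control library, and the row fell by 0.80 (adjusted p = 2.88e-08 by edgeR, SE 0.11) on the log2 scale.

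A further row opposite ACAT2, over 1866 bp at its 5′ end, is that of the mitochondrial superoxide dismutase gene SOD2, which also lies opposite WTAP over 437 bp. SOD2 had 716, 711 and 726 CPM in control and 620, 524 and 616 in SOX9 sgRNA libraries. It fell by 0.29 (adjusted p = 0.030 by edgeR, SE 0.091). This call was lost with library totals (-0.10), when control library 1 (-0.30), 2 (-0.31) or 3 (-0.29) or SOX9 sgRNA library 2 (-0.22) was left out. The exons shared with ACAT2 were 9.83% of the SOD2 row and 9.21% of the TCP1 row.

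HMGCS1, which adds the next acetyl unit to form HMG-CoA (ENSG00000112972, chromosome 5, 43289497 to 43313614, minus strand), had only 3, 11 and 4 counts in its own row in control libraries and 5, 1 and 3 in SOX9 sgRNA libraries and was not tested. The row opposite its 3′ end, ENSG00000261604, shares 703 bp of exon with it and with no other gene. That row had 542, 531 and 464 CPM in control and 329, 340.5 and 370 in SOX9 sgRNA libraries, with no overlap. It fell by 0.56 (adjusted p = 4.39e-05 by edgeR, SE 0.10), to 67.7% of control.

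MVK, mevalonate kinase (ENSG00000110921, chromosome 12, 110011060 to 110035067, plus strand), was the mevalonate gene whose own row fell. It had 214, 220 and 200 CPM in control and 104, 151 and 116 in SOX9 sgRNA libraries, groups that did not overlap. The mean went from 211 ± 10.2 to 123 ± 24.5 CPM (SD, n = 3 each), a log2 fold change of -0.78 (adjusted p = 1.89e-04 by edgeR, SE 0.16). MVK shares 306 bp of exon with MMAB on the other strand, divergent genes whose 5′ ends overlap. MMAB makes adenosylcobalamin, a cofactor outside sterol synthesis, and its own row had 18, 8 and 12 counts in control and 4, 9 and 6 in SOX9 sgRNA libraries, too few for the test.

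The promoters of MVK and of FDPS, a later gene of this pathway, are shown. The MVK row and RUSC1-AS1, the row opposite FDPS, were called, while the FDPS row was not. The MVK window is shared with MMAB over 211 of its 300 bases. The promoters are RefSeq windows from 250 bases before to 50 after the start, on GRCh38.p14, written 5′ to 3′ on the gene's strand. Capitals mark CCAAT on either strand, the box bound by NF-Y, and TCACNCCAC, a form of the sterol regulatory element bound by SREBP. MVK holds 5 CCAAT matches and FDPS 3, and neither holds TCACNCCAC.
MVK (chr12:109573544-109573843, plus strand): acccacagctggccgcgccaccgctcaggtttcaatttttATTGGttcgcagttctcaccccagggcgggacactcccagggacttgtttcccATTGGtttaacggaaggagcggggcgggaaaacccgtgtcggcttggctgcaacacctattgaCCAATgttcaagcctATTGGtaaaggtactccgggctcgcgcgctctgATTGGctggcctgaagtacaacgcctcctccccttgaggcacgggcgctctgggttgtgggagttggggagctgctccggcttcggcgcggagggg
FDPS (chr1:155308616-155308915, plus strand): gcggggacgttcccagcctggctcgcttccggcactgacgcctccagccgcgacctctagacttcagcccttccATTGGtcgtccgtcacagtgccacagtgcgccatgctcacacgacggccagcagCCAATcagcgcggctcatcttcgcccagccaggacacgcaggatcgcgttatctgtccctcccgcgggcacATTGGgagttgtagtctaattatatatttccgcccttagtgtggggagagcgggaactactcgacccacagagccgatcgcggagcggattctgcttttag

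PMVK, phosphomevalonate kinase, had 3 to 9 counts per library and was not tested. MVD, which decarboxylates mevalonate pyrophosphate (ENSG00000167508, chromosome 16), had 13, 6 and 1 counts in control and 16, 15 and 16 in SOX9 sgRNA libraries. Its log2 fold change of 1.00 (adjusted p = 0.31 by edgeR, SE 0.57) was not called, and control library 1, at 17.4 CPM, lay among the SOX9 sgRNA libraries, at 15.6 to 19.5. IDI1, the isopentenyl isomerase (ENSG00000067064, chromosome 10, 1085848 to 1095110, minus strand), had 3 to 11 counts per library in its own row. IDI2-AS1 opposite it, sharing 643 bp with IDI1 and 93 bp with its paralog IDI2, had 342, 367 and 302 CPM in control and 210, 172 and 224 in SOX9 sgRNA libraries. The groups did not overlap, and the row fell by 0.74 (adjusted p = 1.12e-05 by edgeR, SE 0.13).

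FDPS, farnesyl pyrophosphate synthase (ENSG00000160752, chromosome 1, 155278539 to 155290457, plus strand), had the most abundant opposite row. That row, RUSC1-AS1, overlaps FDPS over 693 bp reaching its 3′ end and RUSC1 over 398 bp. It had 2300, 2523 and 2256 CPM in control and 1250, 1242 and 1285 in SOX9 sgRNA libraries. The mean went from 2360 ± 143 to 1259 ± 22.7 CPM (SD, n = 3 each), a fall of 0.91 (adjusted p = 1.50e-17 by edgeR, SE 0.069) to 53.4% of control. The FDPS row itself had 80.1, 90.2 and 92.0 CPM in control and 73.5, 121 and 96.4 in SOX9 sgRNA libraries, a log2 fold change of 0.14 (adjusted p = 0.77 by edgeR, SE 0.21). The own and opposite values of FDPS thus differ in sign, with only the opposite one called. RUSC1 had 82 own counts over the control libraries and 127 over the SOX9 sgRNA libraries, and how far transcripts of RUSC1 enter the RUSC1-AS1 count was not tested.

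**Figure D2:**
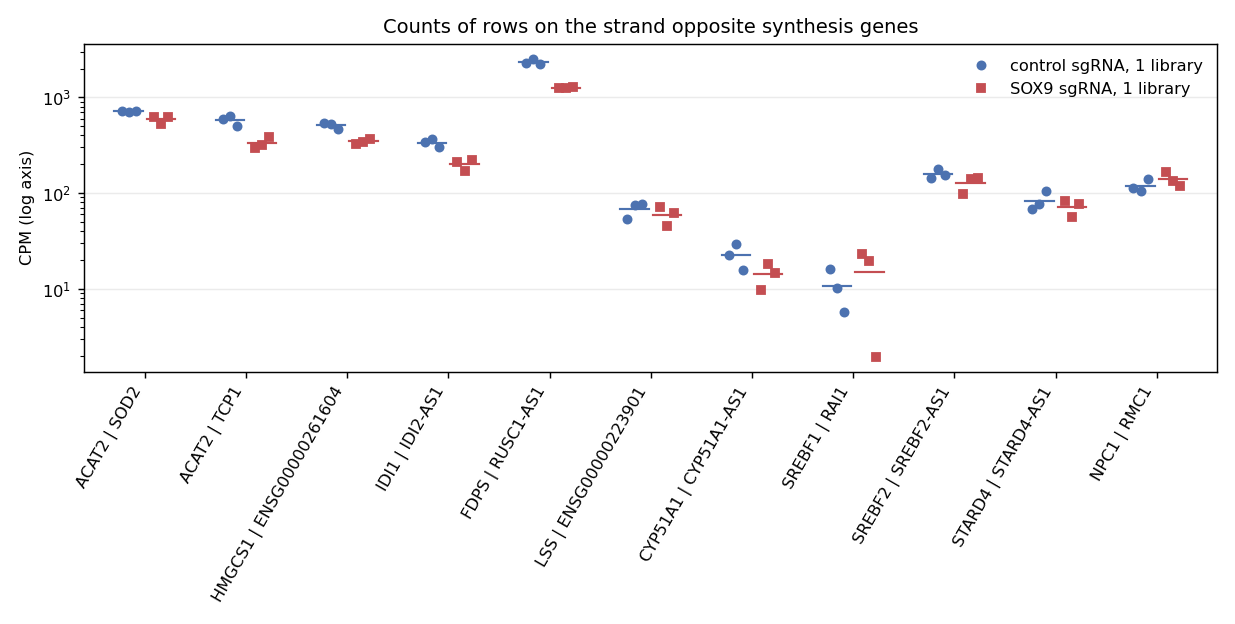
CPM on a log axis for each tested row opposite a synthesis gene that is not itself such a gene (x axis, gene then opposite row), circles for control and squares for SOX9 sgRNA libraries, with bars at the group means (3 libraries each). The squares of the rows opposite ACAT2, HMGCS1, IDI1 and FDPS all lie below the circles, and in the other 6 rows the groups overlap.

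From farnesyl pyrophosphate to lanosterol, the SQLE row was called lower. FDFT1, squalene synthase (ENSG00000079459, chromosome 8), had 13, 18 and 12 counts in control and 6, 6 and 19 in SOX9 sgRNA libraries, a log2 fold change of -0.73 (adjusted p = 0.43 by edgeR, SE 0.50). Scaled, SOX9 sgRNA library 3, at 18.5 CPM, lay inside the control range of 17.3 to 22.9 CPM. SQLE, squalene epoxidase, a rate-limiting step after mevalonate (ENSG00000104549, chromosome 8, 126010739 to 126034525, plus strand), had 54.7, 35.6 and 35.9 CPM in control and 6.02, 15.6 and 18.5 in SOX9 sgRNA libraries. The groups did not overlap and the SQLE row fell by 1.62 (adjusted p = 0.0015 by edgeR, SE 0.38), to 32.5% of control. SQLE has no exon opposite. LSS, lanosterol synthase, had 5 to 12 counts per library and was not tested. Of the rows opposite LSS, ENSG00000223901 had 40, 59 and 54 counts in control and 59, 35 and 64 in SOX9 sgRNA libraries (-0.20, adjusted p = 0.73 by edgeR, SE 0.25) and ENSG00000228404 at most 2.

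Between lanosterol and cholesterol only 2 of 8 genes had enough counts. DHCR7, the reductase of the last step (ENSG00000172893, chromosome 11, 71139239 to 71163914, minus strand), had 14, 14 and 17 counts in control and 2, 9 and 4 in SOX9 sgRNA libraries. The groups did not overlap, and the DHCR7 row fell by 1.78 (adjusted p = 0.045 by edgeR, SE 0.60). The call was close to the threshold and was lost with library totals (-1.60), when control library 1 (-1.84), 2 (-1.87) or 3 (-1.63) or SOX9 sgRNA library 1 (-1.43) or 3 (-1.53) was left out. TM7SF2, a sterol reductase, had 22, 23 and 23 counts in control and 18, 35 and 18 in SOX9 sgRNA libraries (-0.14, adjusted p = 0.89 by edgeR, SE 0.36).

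CYP51A1, the lanosterol demethylase, had 19, 10 and 7 counts against 8, 7 and 5, which scaled to groups that did not overlap (10.1 to 25.4 CPM against 4.87 to 9.64), but it was below the filter. It shares 3211 bp of exon with LRRD1 on the same strand, where a fragment could count for both genes. CYP51A1-AS1 opposite it had 17, 23 and 11 counts against 8, 14 and 15 (-0.68, adjusted p = 0.40 by edgeR, SE 0.44). EBP, the sterol isomerase, had 7, 9 and 4 counts against 10, 7 and 17. MSMO1, NSDHL, HSD17B7 and SC5D, which demethylate, reduce or desaturate the sterol rings, each had 0 to 3 counts in every library, too few to be tested.

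Among the own rows of the 6 tested fatty acid genes that of SCD alone was called, and it fell. SCD makes oleic acid from stearic acid (ENSG00000099194, chromosome 10, 102106881 to 102124591, plus strand). It had 111, 90.2 and 83.4 CPM in control and 16.9, 19.5 and 18.5 in SOX9 sgRNA libraries, with no overlap. The SCD row fell by 2.37 (adjusted p = 1.12e-09 by edgeR, SE 0.29), to 19.4% of control. That was the lowest share among the 18 own rows tested, and no exon lies opposite SCD. ENSG00000256545, whose 1972 bp lie wholly within SCD exons on the same strand, had 13, 11 and 5 counts in control and 0, 3 and 1 in SOX9 sgRNA libraries. The SCD promoter is shown for this fall, with 2 CCAAT matches in capitals and no TCACNCCAC.
SCD (chr10:100346983-100347282, plus strand): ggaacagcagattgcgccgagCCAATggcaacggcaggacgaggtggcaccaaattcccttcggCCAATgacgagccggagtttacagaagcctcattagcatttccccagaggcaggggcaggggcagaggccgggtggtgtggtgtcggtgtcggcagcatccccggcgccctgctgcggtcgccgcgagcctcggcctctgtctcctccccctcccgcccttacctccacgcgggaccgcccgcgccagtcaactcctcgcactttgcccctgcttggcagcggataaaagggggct

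ACLY, which splits citrate to give cytosolic acetyl-CoA (ENSG00000131473, chromosome 17, 40023161 to 40086795, minus strand), had 105, 82.5 and 73.3 CPM in control and 54.2, 57.2 and 53.5 in SOX9 sgRNA libraries. FASN, the fatty acid synthase (ENSG00000169710, chromosome 17, 80036214 to 80056208, minus strand), had 104, 97.8 and 73.3 against 54.2, 63.7 and 60.4. In both genes every SOX9 sgRNA library was below every control library. Such separation was found for 6 of the 18 tested own rows and for 12.8% of all tested genes. Neither passed the threshold, with log2 fold changes of -0.67 (adjusted p = 0.058 by edgeR, SE 0.23) for ACLY and -0.63 (adjusted p = 0.067 by edgeR, SE 0.23) for FASN. Without control library 3, the lowest control library for both, they were called, at -0.78 and -0.77.

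ACSS2, which makes acetyl-CoA from acetate, had 7, 14 and 7 counts against 11, 23 and 12 (0.52, adjusted p = 0.62 by edgeR, SE 0.51). ELOVL6, the elongase of palmitate, had 14, 9 and 8 against 12, 7 and 4 and was not tested. FADS1 and FADS2, the desaturases of polyunsaturated fatty acids, lie opposite each other over 490 bp of exon. FADS1 had 73.4, 105 and 80.5 CPM against 80.7, 100.1 and 84.7, a log2 fold change of 0.03 with a 95% interval of -0.38 to 0.44. FADS2 had 15, 14 and 5 counts against 2, 10 and 14 (-0.62, 95% interval -1.77 to 0.53). Groups overlapped for both, and neither was called.

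**Figure D3:**
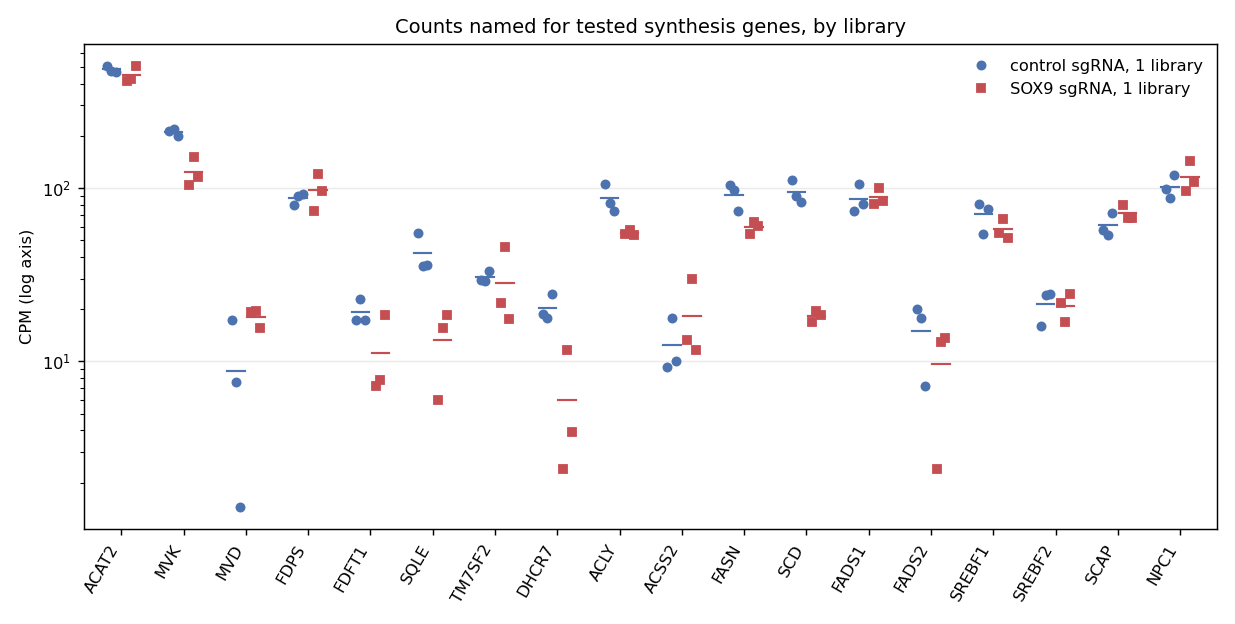
CPM on a log axis in the row named for each of the 18 tested genes (x axis, in pathway order), circles for control and squares for SOX9 sgRNA libraries, with bars at the group means (3 libraries each). For MVK, SQLE, DHCR7, ACLY, FASN and SCD the squares all lie below the circles.

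Genes that control the pathway or move sterols showed no call. SREBF1, which encodes the SREBP forms that drive fatty acid genes, had 81.4, 54.6 and 76.2 CPM in control and 55.4, 66.3 and 51.6 in SOX9 sgRNA libraries (-0.30, 95% interval -0.78 to 0.18). SREBF2, whose product drives cholesterol genes, had 12, 19 and 17 counts against 18, 13 and 25 (-0.03, 95% interval -0.81 to 0.76). SCAP had 57.4, 53.3 and 71.9 CPM against 79.5, 67.6 and 67.2 (0.23, 95% interval -0.24 to 0.70). The row opposite the 5′ end of SREBF2, SREBF2-AS1, had 143, 178 and 155 CPM against 98.8, 140.4 and 144 (-0.31, adjusted p = 0.29 by edgeR, SE 0.17), and RAI1, opposite the 3′ end of SREBF1, 2 to 19 counts per library.

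The SREBF2 promoter is shown because it was the only window of these genes with TCACNCCAC, at 133 bases before the start, next to 1 CCAAT match.
SREBF2 (chr22:41832855-41833154, plus strand): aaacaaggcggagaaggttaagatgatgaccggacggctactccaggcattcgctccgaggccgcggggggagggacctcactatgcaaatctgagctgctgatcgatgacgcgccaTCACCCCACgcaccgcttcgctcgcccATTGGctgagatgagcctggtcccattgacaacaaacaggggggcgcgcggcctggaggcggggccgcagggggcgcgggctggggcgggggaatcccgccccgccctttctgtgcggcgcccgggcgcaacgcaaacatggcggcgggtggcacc

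INSIG1, the sterol-responsive anchor of SCAP and itself a target of SREBP, had 7, 15 and 10 counts in control and 3, 3 and 7 in SOX9 sgRNA libraries. Scaled, these were 9.35 to 19.05 against 3.61 to 6.81 CPM, with no overlap, but the gene was below the filter. INSIG2 and STARD4, a sterol carrier gene, had 0 or 1 count in every library. STARD4-AS1, opposite the 5′ end of STARD4 over 124 bp and opposite NREP over 888 bp, had 51, 61 and 73 counts against 69, 43 and 78 (-0.21, adjusted p = 0.67 by edgeR, SE 0.23). NPC1, which exports cholesterol from lysosomes, had 98.8, 87.6 and 119 CPM against 96.4, 144 and 108 (0.19, 95% interval -0.19 to 0.56). RMC1 opposite NPC1 over 579 bp had 112, 105 and 139 CPM against 166, 133 and 118 (0.22, adjusted p = 0.53 by edgeR, SE 0.18).

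Levels differed widely between own and opposite rows. Per kilobase of annotated exon, mean control levels were 671 CPM for RUSC1-AS1 against 23.5 for FDPS, 265 for IDI2-AS1 against 2.52 for IDI1, and 205 for ENSG00000261604 against 1.68 for HMGCS1. TCP1 and ACAT2 were close, at 118 and 111, while SOD2, the other row opposite ACAT2, was lower, at 37.8. The order was turned for MVK, at 37.6 against 3.06 for MMAB, and for SREBF1, at 8.80 against 1.10 for RAI1. It was also turned for FADS1, at 8.45 against 1.36 for FADS2. FDFT1, at 3.68, was above ENSG00000255046 opposite it, at 1.18 with 0 to 2 counts per library. Among own rows alone, ACAT2 and MVK had the highest levels per kilobase, followed by FDPS, SCD and ACLY at 23.5, 17.7 and 16.7.

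**Figure D4:**
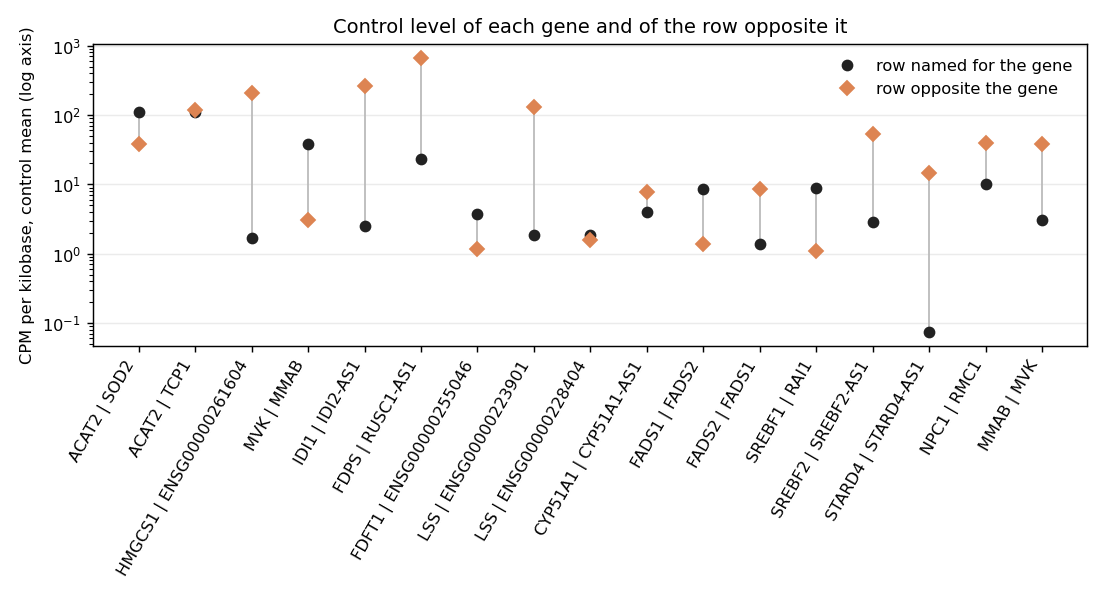
Mean control CPM per kilobase of exon (log axis, 3 libraries) in the row named for each gene (circles) and in each row opposite it (diamonds), for the 15 genes with an opposite row. Opposite rows stand far above own rows for HMGCS1, IDI1, FDPS, SREBF2, STARD4 and MMAB, and less far above for CYP51A1, FADS2 and NPC1. They stand below own rows for MVK, FDFT1, FADS1 and SREBF1. TCP1 stands close to ACAT2 and SOD2 below it. Of the rows opposite LSS, ENSG00000223901 stands far above it and ENSG00000228404 just below it.

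The position of the overlap differed among opposite rows. TCP1, ENSG00000261604 and RUSC1-AS1 reach the annotated 3′ end of ACAT2, HMGCS1 and FDPS, and IDI2-AS1 overlaps IDI1 only in exons away from both of its ends. SREBF2-AS1 and the SOD2 row cover the 5′ ends of SREBF2 and ACAT2. RAI1 also reaches the 3′ end of its partner, SREBF1, and was not called.

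RefSeq promoter windows were found for 30 of the 34 genes, ACACA among them, and not for ACAT2, FDFT1, SQLE and FASN. CCAAT, searched on both strands, occurred in at least 1 window of 22 of these 30 genes, against 39.7% of the 27305 genes in the table. The Sp1 box GGGCGG occurred in 29 of 30, against 48.3%, and the E-box CACGTG in 4 of 30, against 8.77%. TCACNCCAC occurred in 1 of 30, against 1.39%. The SOX core motif ACAAAG occurred in 4 of 30 and ACAATG in 1 of 30, against 19% and 13%. These are letter matches in a 300-base window and not binding sites.

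Other genes of the same biology were followed in 8 lists. Of 11 matched genes of sterol sensing and SREBP processing 8 were tested and 1 was lower. That was RNF145, a sterol-responsive ubiquitin ligase gene opposite ENSG00000253256, with 64 counts over the control libraries and 30 over the SOX9 sgRNA libraries, a fall of 1.34 (adjusted p = 0.038 by edgeR, SE 0.44). Its call was lost with library totals (-1.15), when control library 1 (-1.36) or 2 (-1.19) or SOX9 sgRNA library 1 (-0.999) or 2 (-1.30) was left out. RNF139 gave 0.79 (edgeR adjusted p = 0.36). In sterol uptake, transport and storage 0 of 7 tested genes of 21 were called (median -0.21), with OSBPL2 at 0.96 and VLDLR at -1.03. In LXR signalling and efflux 0 of 5 tested of 10 were called (median -0.17), with LPCAT3 at -0.17 and PLTP at 0.24.

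In the isoprenoid branches 0 of 7 tested genes of 13 were called (median 0.08), with the farnesyltransferase subunit genes FNTB at 0.83 and FNTA at -0.68. Of fatty acid elongation, desaturation and activation genes 3 of 26 were tested and 0 called (median -0.37), with TECR at -0.37 and ELOVL1 at -0.64. Among genes of citrate, NADPH and lipogenic regulation 0 of 7 tested of 17 were called (median -0.31). Of these, 5 were negative and 2 positive, from -1.01 to 1.04. TKT, transketolase, gave -0.58 (edgeR adjusted p = 0.12), called without control library 3 (-0.73), and MLXIP -1.01. Glycerolipid assembly genes (0 called of 8 tested of 17, median 0.31, LPIN3 at 0.74 and CHKA at 0.94) and fatty acid oxidation genes (0 of 6 tested of 12, median 0.29, ACADVL at 0.29 and HADHA at 0.51) had positive medians. At an unadjusted p under 0.05 the counts for these 7 lists without a call were, in the order given, 1, 0, 1, 0, 3, 1 and 0. The share of all tested genes under that unadjusted threshold is not given here. It is at least the 9.01% called after adjustment, so these counts are not read as a result about the lists. With library totals OSBPL2 (1.15, adjusted p = 0.048 by edgeR) and ACADVL (0.48, adjusted p = 0.028 by edgeR) were called higher, and with DESeq2 none of the named genes of these 7 lists was called.

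How the calls depended on single libraries was read from 6 fits that each left out 1 library. SCD, SQLE and MVK among own rows, and TCP1, ENSG00000261604, IDI2-AS1 and RUSC1-AS1 among opposite rows, were called in all 6 and in each of the 6 other settings tried. The ranges over the 6 fits were -2.46 to -2.25 for SCD, -1.97 to -1.29 for SQLE, -0.95 to -0.68 for MVK and -0.95 to -0.87 for RUSC1-AS1. DHCR7 was called in 1 of the 6 and the SOD2 row in 2.

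**Figure D5:**
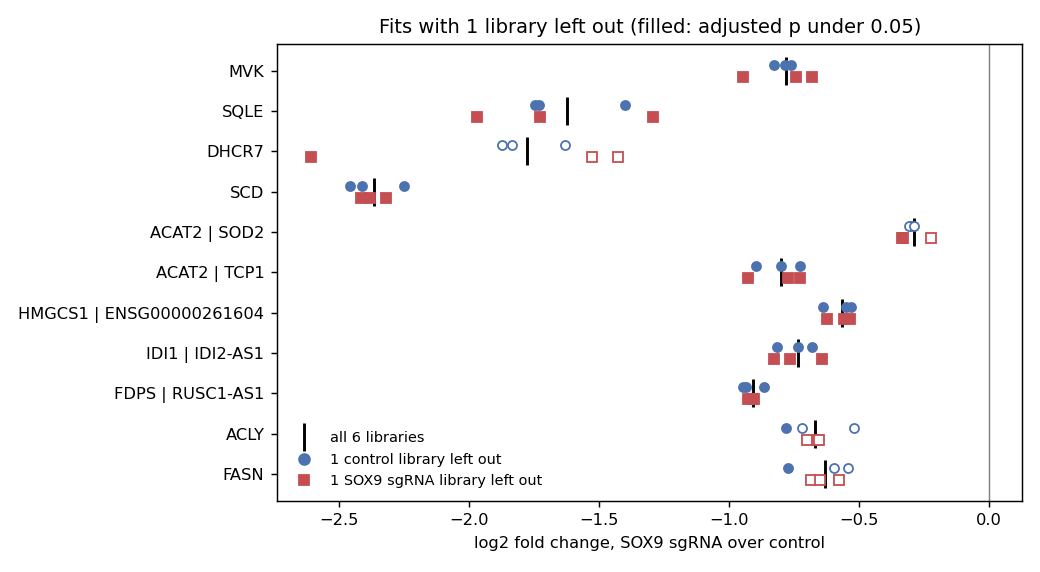
Log2 fold change of SOX9 sgRNA over control (x axis) in the 6 fits that each leave out 1 library, circles for a control and squares for a SOX9 sgRNA library left out, filled where the adjusted p was under 0.05, and a vertical line for the fit of all 6. Rows are the called genes and opposite rows, with ACLY and FASN. SCD, SQLE, MVK and the rows opposite HMGCS1, IDI1 and FDPS, with TCP1, are filled throughout.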

How the data were processed

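Per the labels' protocols, RNeasy Plus Micro columns and a Takara SMARTer kit for low-input stranded total RNA were used. The authors deposited whole-number counts of fragments per gene, 1 table per library. The submitters' processing notes name STAR 2.7.10a, Subread 1.6.2 and GRCh37. Per the file headers, featureCounts 1.6.2 used exons of Ensembl GRCh37 release 75, strand setting 1, and counted a fragment for every gene it overlapped. No source used here states the kit's read orientation.

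Symbols came from an identifier table and GENCODE 29, and overlaps from the tables' own coordinates (bedtools 2.31.1). The test was that of edgeR 4.0.16 under R 4.3.3: default filterByExpr, TMM factors, robust quasi-likelihood fit, Benjamini-Hochberg adjustment over all tested genes. Log2 fold changes use a prior count of 0.125. CPM is relative to TMM-scaled totals over tested genes, 695522 to 1027254 per library. The scripts were tested on simulated data. Alternatives were DESeq2 1.42.0, other size factors and filters, a replicate block, and leaving out each library.

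The members and lists were chosen with earlier results of these data known. Named genes were all members, tested opposite rows, and, of each other list, up to 4 genes by smallest adjusted p, of which the first 2 are given. The rows opposite list genes were not analysed.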

Additional observations from a re-analysis of the deposited data

How the results depend on the processing

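No own or opposite row was called higher under any of the 12 alternatives. Own rows called lower ran from 3 to 5 and opposite rows from 5 to 6, against 4 and 6. Over all genes, library totals gave 625 higher and 249 lower against 238 and 479, no filter gave 151 higher and DESeq2 130. The median of the opposite rows was -0.25 with library totals, -0.60 with no filter and -0.29 with the stricter filter of 20 CPM in 3 libraries, and that of the own rows -0.037 with library totals. Leaving out 1 library gave medians of -0.55 to -0.19 for own rows and -0.62 to -0.34 for opposite rows, 161 to 207 genes higher and 364 to 430 lower. The genes tested differed between these fits.

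Values of the other sign arose only for uncalled genes. With library totals they were 0.078 for ACAT2, 0.040 for TM7SF2, 0.16 for SREBF2 and 0.010 for LPCAT3, and with no filter -0.0048 for FADS1. Over the fits leaving out a library, ranges crossing 0 were -0.090 to 0.19 for FADS1, -0.21 to 0.093 for SREBF2, -0.65 to 0.12 for TM7SF2, -0.040 to 0.30 for FDPS, -0.011 to 0.87 for ACSS2 and -0.076 to 0.97 for RAI1. The cause was not tested.

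Replicate numbers did not pair the libraries (correlations of same-numbered deviations from -0.011 to 0.019). The replicate block gave 175 genes higher and 399 lower, with 3 own and 6 opposite rows lower, DHCR7 and RNF145 losing their calls. DESeq2 and the fit with no filter also lost DHCR7, RNF145 and the SOD2 row. Of the 33 own rows 15 were not tested, with 3 to 57 counts over all 6 libraries. Whether depth or strand assignment set these low counts was not tested.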
